A study of Mus musculus with 6 samples.

Results

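The genes described here are 49 enzymes that break down amino acids in mouse liver, chosen by name from a deposited table of 55401 genes. Of these, 48 were found by symbol and Mmut, listed elsewhere under the older symbol Mut, was found by its gene identifier. They were sorted by the amino acid they serve into 9 routes: tyrosine (6 genes), tryptophan (8), branched-chain amino acids (12), propionate (4), histidine (3), glycine and glyoxylate (6), proline (3), lysine (2), and transaminases with glutamate dehydrogenase (5). All 49 were abundant enough to be tested, among 18931 genes tested in all. The rule that selects them reads gene names and no measured value, but the list of names was chosen with earlier results of these data known.

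Liver RNA was sequenced from 6 male mice, 3 in each of 2 genotypes. The controls carried floxed Prdx1 alleles and no Cre, Prdx1(lox/lox), and the knockouts carried the same alleles with albumin-Cre, Prdx1(lox/lox);Alb-cre. All mice entered the diet at 8 weeks of age and were kept for 5 weeks on MCD, an abbreviation the labels do not spell out and which commonly means a diet deficient in methionine and choline. Albumin-driven Cre acts in hepatocytes, so Prdx1, which encodes a peroxide-reducing enzyme, is removed there and may remain in other liver cells. The controls lacked Cre, so an effect of Cre itself and one of Prdx1 loss cannot be told apart. All groups ate the same diet, so a difference that needs the diet and one that does not cannot be told apart either.

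The liver is the main site where amino acids not used for protein are broken down. Aminotransferases move the amino group to glutamate, and dedicated oxidases, dehydrogenases and hydrolases then convert each carbon skeleton to glucose precursors, ketone bodies or intermediates of the citric acid cycle. Most of these enzymes are strongly expressed in hepatocytes. Branched-chain amino acids are an exception to liver-first breakdown, because their first transamination takes place mainly in muscle and the liver oxidises the resulting keto acids.

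Levels between libraries are given as CPM, counts scaled to a common library total with trimmed-mean (TMM) factors, and levels between genes as FPKM, which also divides by transcript length. Fold changes are log2 ratios of knockout over control with their standard error (SE), and adjusted p is from the quasi-likelihood test of edgeR, adjusted over all 18931 genes by the Benjamini-Hochberg method. Prdx1 itself stood at 644, 569.8 and 663 CPM in the controls and 78.7, 111 and 75.4 CPM in the knockouts, a fall by 2.83 ± 0.17 (SE, n = 3 mice per genotype, edgeR adjusted p = 4.4e-05). The libraries held between 58790874 and 78291273 deposited counts.

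Sequences upstream of 4 members are shown first. Tat, Kmo and Gldc fell most in the tyrosine, tryptophan and glycine routes, and Ivd had the highest fold change of the branched-chain route. Afmid, the only member called higher, is not among them. Each is the 150 bases before the RefSeq transcript start in GRCm38.p6, written 5′ to 3′ on the gene's strand, at chr8:109990286-109990435 (plus strand), chr1:175632043-175632192 (plus), chr19:30175442-30175591 (minus) and chr2:118861844-118861993 (plus). The Kmo and Ivd starts lie inside the spans that the table gives for these genes. The Ivd span opens at 118861954, within the printed bases. Capitals mark the letters CCAAT or their reverse complement ATTGG.
Tat: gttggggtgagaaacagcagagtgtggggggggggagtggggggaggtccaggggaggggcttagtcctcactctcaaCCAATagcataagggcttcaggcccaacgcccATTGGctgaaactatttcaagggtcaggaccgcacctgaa
Kmo: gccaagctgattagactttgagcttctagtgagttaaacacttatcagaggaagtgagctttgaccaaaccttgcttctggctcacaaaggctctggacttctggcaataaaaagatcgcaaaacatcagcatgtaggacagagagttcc
Gldc: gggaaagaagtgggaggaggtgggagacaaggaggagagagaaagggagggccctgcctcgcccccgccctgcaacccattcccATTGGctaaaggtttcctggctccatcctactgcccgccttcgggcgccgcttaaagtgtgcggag
Ivd: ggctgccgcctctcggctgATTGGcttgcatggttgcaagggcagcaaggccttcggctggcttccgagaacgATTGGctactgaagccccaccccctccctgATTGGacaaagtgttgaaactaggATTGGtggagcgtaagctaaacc

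RefSeq windows were found for 43 of the 49 members, which gave 47 windows because 4 members had 2 starts. In the 250 bases before the start, on either strand, CCAAT was present in 22 of 47 member windows (46.81%) and in 33.85% of 32851 windows of all genes. The letters GTTAAT, a half-site for the hepatocyte factor HNF1, were present in 7 member windows (14.89%) and in 6.43% of all windows. CAAAGTCC, the core of a site for HNF4, was found in 3 member windows (6.38%), those of Aadat and Agxt2, and in 1.2% of all windows. The Agxt2 windows overlap, and the same match is counted in each of them. Each of these motifs was thus present in only some of the member windows. TATAAA was present in 8 member windows (17.02%) and in 12.37% of all windows, and again the overlapping Agxt2 windows hold the same match. Within the bases printed above, Tat had 2 CCAAT matches, Gldc had 1, Ivd had 4 and Kmo had none. CCAAT was thus found in front of genes that fell and in front of one that did not. These matches describe letters and are not evidence of binding.

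Of the 49 genes, 35 were lower in the knockouts, 1 was higher and 13 did not pass the test. Over all genes tested, 18.0% were called lower and 19.9% higher. The median log2 fold change of the members was -0.55, beside 0.05 over all genes. In bulk liver RNA, fewer hepatocytes and less of an enzyme's RNA per hepatocyte cannot be told apart. Of 11 hepatocyte markers 9 were lower in the same knockouts, and most markers of 3 other liver cell types were higher, as given at the end. The part of these cell types in the members' falls was not tested. In TMM-scaled CPM, the lowest control was above the highest knockout for 39 members, and the reverse held for 1. Over all genes these shares were 24.2% and 28.8%. Where groups of single genes are said below to be apart, this refers to TMM-scaled CPM. By FPKM, the groups of Pcca, Acadsb, Hgd, Haao, Fah, Ftcd and Agxt2, among others, overlapped. With each library left out in turn, 30 members were called lower every time, beside 12.1% of all genes. A fold of at least 1.5 as a further requirement left 22 members lower, beside 10.5% of all genes.

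The scaling of the libraries set how many of these differences passed the test. With library sizes alone, without TMM factors, the median of all genes moved to 0.41, that of the members to -0.18, and 16 members were lower and 2 higher (6.60% and 34.1% of all genes). With limma on deposited FPKM, using log2(FPKM + 0.5), all genes had a median of 0.26 and the members -0.19, with 15 lower and 2 higher (6.81% and 32.4% of all genes). Under TMM, its DESeq2-type counterpart RLE, library sizes alone and FPKM alike, 15 members were called lower, beside 6.63% of the genes tested in all of them, and Afmid was called higher, beside 19.6%. Those 15 were Tat, Pcbd1, Qdpr, Kmo, Kynu, Bckdha, Hibch, Mmut, Gldc, Gcsh, Prodh, Aldh4a1, Gcdh, Got2 and Gpt2. They came from every route but histidine.

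**Figure D1:**
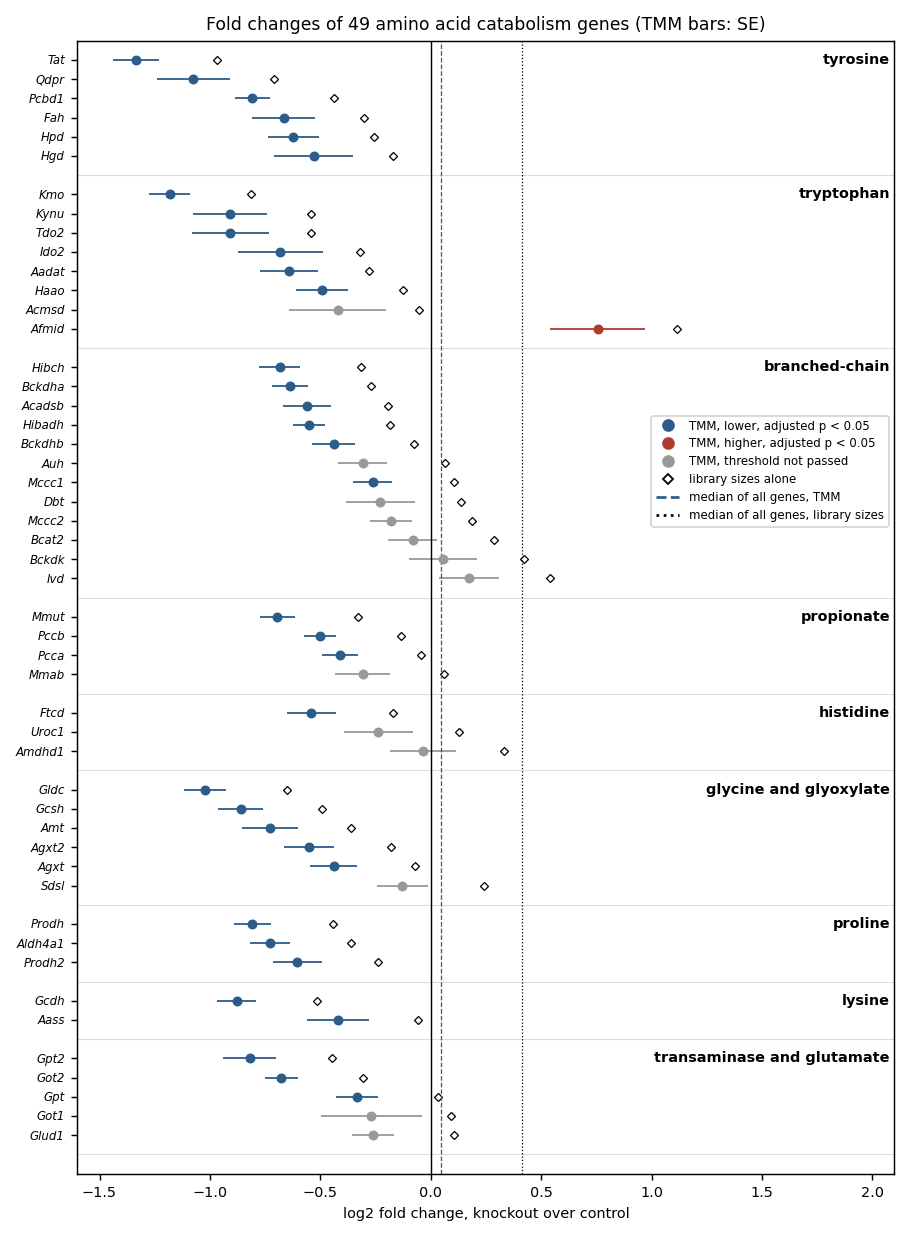
Log2 fold change (knockout over control) of each of the 49 genes, grouped by route and ordered within it. Circles with SE bars are TMM-scaled estimates coloured by call, open diamonds are estimates from library sizes alone, and the dashed and dotted lines are the medians of all genes at 0.05 and 0.41. Tat and Kmo lie farthest to the left, Afmid farthest to the right, and Amdhd1, Bckdk and Bcat2 lie nearest to 0.

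Set against the median of all genes in the same fit, the route medians differed in size. The tyrosine and proline medians differed from it by -0.78 and -0.78, and the tryptophan, lysine and glycine medians by -0.71, -0.70 and -0.69. Propionate differed by -0.50, the transaminases by -0.38, the branched-chain route by -0.33 and histidine by -0.28. The order was the same with library sizes alone (from -0.79 for tyrosine to -0.29 for histidine), and with FPKM (from -0.66 to -0.18) only tryptophan and lysine changed places. The order did not hold when libraries were left out: without knockout 3 the medians themselves were -0.41 for histidine, -0.24 for the branched-chain route, -0.56 for the transaminases and -0.46 for propionate, so that the branched-chain route came last. The differences between routes were not tested, since genes of a route are not replicates.

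In the tyrosine route all 6 genes fell, with a median log2 fold change of -0.74 (-0.37 with library sizes alone). Tyrosine aminotransferase, Tat (ENSMUSG00000001670, chromosome 8, 109990437 to 109999803), takes the amino group from tyrosine and limits the rate of the route. It stood at 3460, 4108 and 3352 CPM in the controls and 1386, 1419 and 1521 CPM in the knockouts and fell by 1.34 ± 0.10 (edgeR adjusted p = 0.000109). Each knockout lay well below each control, and the knockouts were closer together than the controls. By FPKM Tat was the most abundant of the 49 genes in both genotypes, at 1217 ± 122 in the controls and 614 ± 12.6 in the knockouts (SD, n = 3).

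Qdpr and Pcbd1 encode the enzymes that regenerate tetrahydrobiopterin, the cofactor of the hydroxylase that makes tyrosine from phenylalanine. Qdpr stood at 125, 187 and 164 CPM in the controls and 77.6, 64.5 and 84.01 CPM in the knockouts and fell by 1.08 ± 0.17 (edgeR adjusted p = 0.00192). Pcbd1 stood at 207, 197 and 185 CPM in the controls and 114, 109 and 114 CPM in the knockouts and fell by 0.81 ± 0.08 (edgeR adjusted p = 0.000291). For both cofactor genes the groups were apart, and both calls held under every scaling and without each library in turn.

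The next enzymes of the route, 4-hydroxyphenylpyruvate dioxygenase (Hpd), homogentisate dioxygenase (Hgd) and fumarylacetoacetase (Fah), carry the skeleton from the keto acid of tyrosine, through ring opening by Hgd, to fumarate and acetoacetate. Hpd stood at 1025, 946 and 965 CPM in the controls and 564, 598 and 744 CPM in the knockouts and fell by 0.62 ± 0.12 (edgeR adjusted p = 0.00458). Fah stood at 336, 369 and 325 CPM in the controls and 192, 190.3 and 267 CPM in the knockouts and fell by 0.67 ± 0.14 (edgeR adjusted p = 0.00854). Knockout 3 was the highest knockout for both. Hgd fell by 0.53 ± 0.18 (edgeR adjusted p = 0.0489), and this call held only without knockout 3 when single libraries were left out (edgeR adjusted p up to 0.147). The estimates for these 3 genes were smaller in size than those for Tat and the cofactor genes, a difference that was not tested. With library sizes alone, Hpd, Hgd and Fah had log2 fold changes of -0.26, -0.17 and -0.30 and none passed the test.

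**Figure D2:**
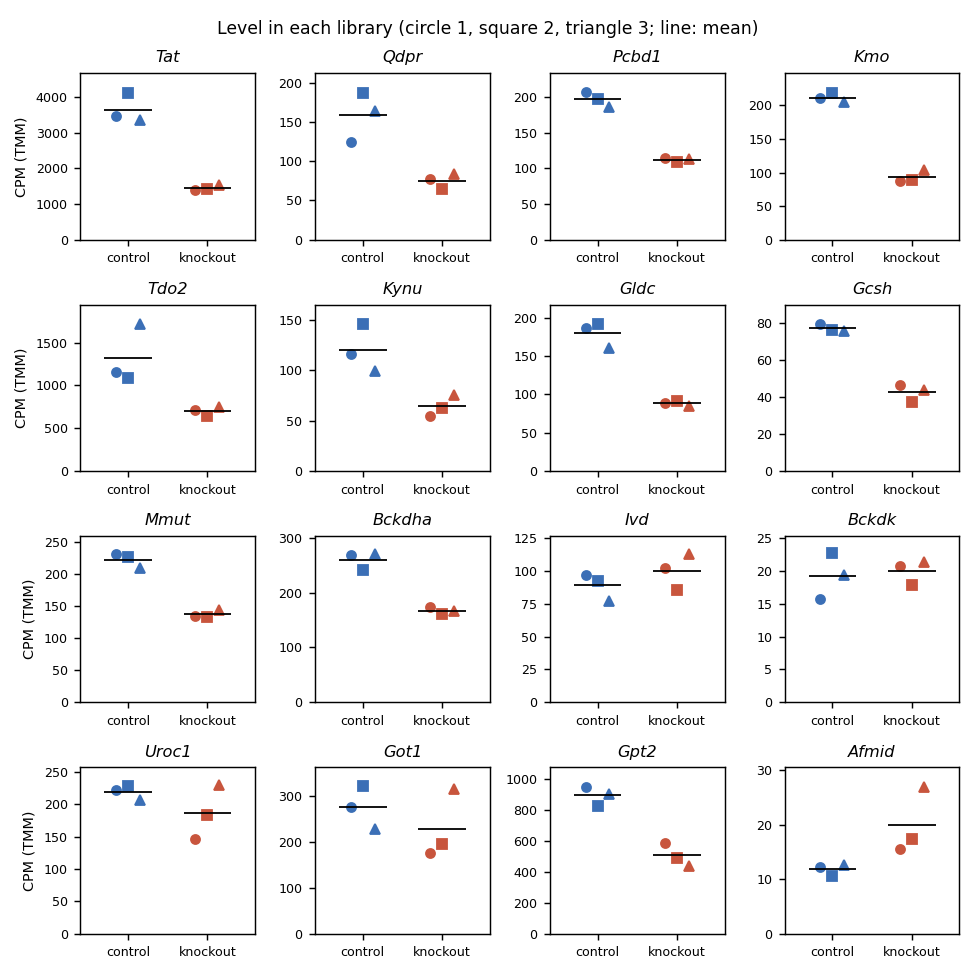
CPM (TMM-scaled, axes from 0) of selected genes in each library, with circles, squares and triangles for libraries 1, 2 and 3 of each genotype and a line at the group mean. The Tat controls lie between 3352 and 4108 and the knockouts between 1386 and 1521, and Afmid is the gene whose knockouts lie above its controls.

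Of the 8 tryptophan genes, 6 fell, Afmid rose and Acmsd did not pass the test, and the median log2 fold change was -0.66 (-0.30 with library sizes alone). Kynurenine 3-monooxygenase, Kmo (ENSMUSG00000039783, chromosome 1, 175620381 to 175660853), hydroxylates kynurenine on the way to NAD. It stood at 211, 219 and 205 CPM in the controls and 87.7, 88.8 and 104 CPM in the knockouts and fell by 1.18 ± 0.09 (edgeR adjusted p = 0.000117). The groups were far apart, with 205 CPM as the lowest control and 104 CPM as the highest knockout.

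Tryptophan enters the route through Tdo2, the hepatic dioxygenase, and Ido2, its low-abundance relative. Tdo2 stood at 1153, 1083 and 1714 CPM in the controls and 718, 645 and 745 CPM in the knockouts and fell by 0.91 ± 0.17 (edgeR adjusted p = 0.00535). Ido2 fell by 0.68 ± 0.19 (edgeR adjusted p = 0.0262), and this call was lost without control 1, control 3, knockout 1 or knockout 2 (edgeR adjusted p up to 0.0943). It was also lost with library sizes alone, at -0.32 (edgeR adjusted p = 0.215). Kynureninase, Kynu, which releases alanine, stood at 116, 146 and 99.8 CPM in the controls and 54.8, 62.6 and 75.2 CPM in the knockouts and fell by 0.91 ± 0.17 (edgeR adjusted p = 0.0044). Both groups of Kynu and of Tdo2 were apart, and the Kynu call held under every scaling.

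Aadat, which transaminates kynurenine to kynurenic acid, stood at 47.6, 39.6 and 49.2 CPM in the controls and 25.3, 29.2 and 32.8 CPM in the knockouts and fell by 0.64 ± 0.13 (edgeR adjusted p = 0.00687). Haao, the ring-opening dioxygenase that forms the precursor of quinolinic acid, fell by 0.49 ± 0.12 (edgeR adjusted p = 0.0134). Acmsd, which diverts that precursor away from NAD synthesis, had a log2 fold change of -0.42 ± 0.22 and did not pass the test (edgeR adjusted p = 0.171). With library sizes alone, Aadat and Haao had log2 fold changes of -0.279 and -0.125 and neither passed (edgeR adjusted p = 0.121 and 0.394).

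Afmid, the arylformamidase that follows the dioxygenases, moved the other way. It stood at 12.3, 10.6 and 12.6 CPM in the controls and 15.6, 17.4 and 26.9 CPM in the knockouts, with a log2 fold change of 0.76 ± 0.21 (edgeR adjusted p = 0.0264). The knockouts lay above the controls, and knockout 3 lay far above the other knockouts. The call was lost without any 1 of the controls and without knockout 3 (edgeR adjusted p = 0.0519 without knockout 3, at most 0.0834 over the 6 omissions). Afmid was the lowest of the 49 genes by FPKM in the controls, at 2.68. In the annotation, 44.2% of its exon bases are also exon bases of Gm20708 on the same strand, which had a log2 fold change of 0.78 (edgeR adjusted p = 0.0775), so how counts were shared between them bears on this value and was not tested.

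All 8 tryptophan genes had their highest knockout value in knockout 3. Over the members this held for 30 of 49 genes, including 5 of 6 tyrosine genes and none of the 6 glycine genes, and over all genes tested for 34.6%. Knockout 3 was also the highest knockout for all 11 hepatocyte markers measured. Without knockout 3, 36 members were lower and 0 were higher (edgeR adjusted p under 0.05; 14.5% and 15.9% of all genes). The tryptophan median in single knockouts, against the control mean, was -0.84, -0.70 and -0.44 in knockouts 1, 2 and 3, and the glycine median was -0.59, -0.70 and -0.67.

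**Figure D3:**
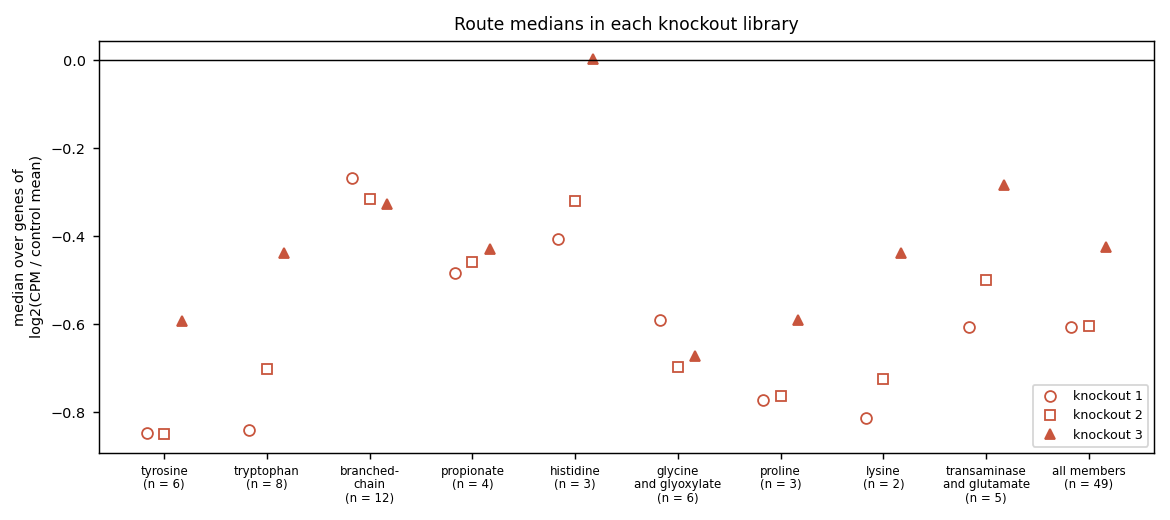
Median over the genes of a route of log2(CPM over the mean of the controls), for each knockout library, with the number of genes under each route. Knockout 3 (triangles) lies above the other knockouts for tyrosine, tryptophan, propionate, histidine, proline, lysine and the transaminases, between them for glycine and glyoxylate, and below them for the branched-chain route (-0.33 against -0.27 and -0.32).

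In the branched-chain route 6 of 12 genes fell and 6 did not pass the test, and the median of -0.29 under TMM turned to 0.09 with library sizes alone and 0.05 with FPKM. The keto acid dehydrogenase that commits the skeletons to oxidation is built from Bckdha and Bckdhb (the decarboxylase subunits) and Dbt (the transacylase core). Bckdha stood at 268, 242 and 270.1 CPM in the controls and 173, 162 and 166 CPM in the knockouts and fell by 0.64 ± 0.08 (edgeR adjusted p = 0.000886). Bckdhb fell by 0.44 ± 0.10 (edgeR adjusted p = 0.0101), but with library sizes alone it was at -0.07 and did not pass (edgeR adjusted p = 0.567). Dbt had a log2 fold change of -0.23 ± 0.16 and did not pass (edgeR adjusted p = 0.299), and was at 0.14 with library sizes alone. In the annotation 61.7% of Bckdha exon bases lie opposite exons of B3gnt8, whose mean count was 854 beside 14240 for Bckdha.

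After the dehydrogenase, the valine and isoleucine skeletons pass through enzymes of their own. Hibch, the hydrolase for 3-hydroxyisobutyryl-CoA, stood at 83.5, 76.2 and 77.95 CPM in the controls and 53.95, 47.2 and 46.8 CPM in the knockouts and fell by 0.68 ± 0.09 (edgeR adjusted p = 0.00118). Hibadh, the dehydrogenase that follows it, stood at 271, 269 and 252 CPM in the controls and 180.1, 176 and 184 CPM in the knockouts and fell by 0.55 ± 0.07 (edgeR adjusted p = 0.00111). Acadsb, which acts on the isoleucine skeleton, stood at 47.4, 45.7 and 54.2 CPM in the controls and 33.6, 35.96 and 30.1 CPM in the knockouts and fell by 0.56 ± 0.11 (edgeR adjusted p = 0.00551). Groups were apart for all 3 genes, and of them only Hibch was called under every scaling.

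The genes of the leucine steps had smaller estimates or positive ones. Isovaleryl-CoA dehydrogenase, Ivd, stood at 97.2, 92.5 and 76.98 CPM in the controls and 102, 85.2 and 113 CPM in the knockouts with a log2 fold change of 0.17 ± 0.13 (edgeR adjusted p = 0.359), and the groups overlapped. With library sizes alone Ivd was called higher, at 0.54 (edgeR adjusted p = 0.0111), and with FPKM at 0.50 (limma adjusted p = 0.0202). In those 2 fits the medians of all genes were 0.415 and 0.264, and 34.1% and 32.4% of all genes were called higher. Mccc1, a subunit of methylcrotonyl-CoA carboxylase, fell by 0.26 ± 0.09 under TMM (edgeR adjusted p = 0.0473), had a log2 fold change of 0.11 with library sizes alone, and lost its call under every single omission. Its partner Mccc2 (-0.18 ± 0.09) and Auh (-0.31 ± 0.11), the hydratase that follows, did not pass the test, and both turned positive with library sizes alone (0.19 and 0.06). Both lay below the median of all genes in that fit.

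At the ends of the branched-chain route stand the first transaminase and the brake on the dehydrogenase. Bcat2 had a log2 fold change of -0.08 ± 0.11 (0.28 with library sizes alone). Bckdk, the kinase that inactivates the dehydrogenase, stood at 15.8, 22.6 and 19.3 CPM in the controls and 20.7, 17.9 and 21.4 CPM in the knockouts with a log2 fold change of 0.06 ± 0.15. Neither passed the test, and the groups of both overlapped. Antisense to Bcat2, 15.9% of its exon bases are shared with 0610005C13Rik, which had a higher mean count (5368 beside 2174), so the Bcat2 value is uncertain if strand was not used in counting.

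Propionyl-CoA from valine, isoleucine, threonine and methionine is carried to succinyl-CoA by the propionate genes, of which 3 of 4 fell, with a median of -0.46 (-0.09 with library sizes alone). Mmut, methylmalonyl-CoA mutase, stood at 231, 227 and 211 CPM in the controls and 135, 134 and 144 CPM in the knockouts and fell by 0.69 ± 0.08 (edgeR adjusted p = 0.000586). Pccb, a propionyl-CoA carboxylase subunit, stood at 190.4, 189.7 and 190.3 CPM in the controls and 136, 132 and 134 CPM in the knockouts and fell by 0.50 ± 0.07 (edgeR adjusted p = 0.00135). The other carboxylase subunit, Pcca, stood at 68.5, 67.2 and 65.2 CPM in the controls and 47.7, 50.99 and 52.3 CPM in the knockouts and fell by 0.41 ± 0.08 (edgeR adjusted p = 0.00592). All 3 had groups apart, and Mmut alone was called under every scaling. Mmab, which makes the cobalamin cofactor of the mutase, stood at 18.8, 21.3 and 17.01 CPM in the controls and 14.3, 15.6 and 16.1 CPM in the knockouts and did not pass the test (-0.31 ± 0.13, edgeR adjusted p = 0.0911; 0.06 with library sizes alone).

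Of the 3 histidine genes only Ftcd fell, and the route's median of -0.24 turned to 0.13 with library sizes alone. Ftcd, which passes the formimino group to folate at the end of the route, stood at 321, 344 and 272 CPM in the controls and 234, 200.2 and 209 CPM in the knockouts and fell by 0.54 ± 0.11 (edgeR adjusted p = 0.00722). With library sizes alone Ftcd had a log2 fold change of -0.17 and did not pass (edgeR adjusted p = 0.265). Urocanase, Uroc1, stood at 222, 229 and 207 CPM in the controls and 146, 183 and 229 CPM in the knockouts and did not pass (-0.24 ± 0.16, edgeR adjusted p = 0.277; 0.13 with library sizes alone). Amdhd1, the imidazolonepropionase between them, stood at 146, 113 and 125 CPM in the controls and 145, 102 and 127 CPM in the knockouts and did not pass (-0.04 ± 0.15, edgeR adjusted p = 0.88; 0.33 with library sizes alone). Among the single omissions, Uroc1 was called lower only without knockout 3 (edgeR adjusted p = 0.0473), where the median of the route was -0.41.

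In the glycine and glyoxylate route 5 of 6 genes fell, with a median of -0.64 (-0.27 with library sizes alone). The mitochondrial glycine cleavage system releases carbon dioxide and ammonia from glycine and passes a one-carbon unit to folate. Its decarboxylase Gldc (ENSMUSG00000024827, chromosome 19, 30098447 to 30175429) stood at 187, 192 and 160.4 CPM in the controls and 88.8, 91.6 and 84.8 CPM in the knockouts and fell by 1.02 ± 0.10 (edgeR adjusted p = 0.00023). Gcsh, the lipoyl carrier protein, stood at 79.7, 76.2 and 75.6 CPM in the controls and 46.3, 37.5 and 43.7 CPM in the knockouts and fell by 0.86 ± 0.10 (edgeR adjusted p = 0.000636). Amt, the aminomethyltransferase, stood at 50.6, 44.97 and 37.3 CPM in the controls and 28.6, 25.8 and 25.9 CPM in the knockouts and fell by 0.73 ± 0.13 (edgeR adjusted p = 0.00339). For all 3 the groups were apart and the call held without each library in turn. Under library sizes alone Amt had a log2 fold change of -0.36 (edgeR adjusted p = 0.063), while Gldc and Gcsh kept their calls.

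The glyoxylate aminotransferases fell as well under TMM. Agxt2, the mitochondrial enzyme, stood at 170.4, 201 and 152 CPM in the controls and 118, 124 and 116 CPM in the knockouts and fell by 0.55 ± 0.11 (edgeR adjusted p = 0.00661). With library sizes alone Agxt2 was at -0.18 and did not pass (edgeR adjusted p = 0.239). Agxt, which turns glyoxylate back to glycine in peroxisomes, fell by 0.44 ± 0.10 (edgeR adjusted p = 0.0134; -0.07 with library sizes alone, not passing). Sdsl, related to serine dehydratase, had a log2 fold change of -0.13 ± 0.12 (edgeR adjusted p = 0.429) and 0.24 with library sizes alone.

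All 3 proline genes fell, with a median of -0.73 (-0.36 with library sizes alone). Proline dehydrogenase, Prodh, stood at 128, 117 and 123 CPM in the controls and 73.9, 66.5 and 69.5 CPM in the knockouts and fell by 0.81 ± 0.08 (edgeR adjusted p = 0.000363). Aldh4a1, which oxidises the product to glutamate, stood at 472, 455 and 435 CPM in the controls and 254, 267 and 301 CPM in the knockouts and fell by 0.73 ± 0.09 (edgeR adjusted p = 0.000798). Prodh2, which acts on hydroxyproline, stood at 52.2, 57.9 and 59.9 CPM in the controls and 33.1, 37.2 and 41.4 CPM in the knockouts and fell by 0.60 ± 0.11 (edgeR adjusted p = 0.00422). No control overlapped a knockout for any of the 3, and the Prodh and Aldh4a1 calls held under every scaling. Gm21969 shares 32.5% of the Aldh4a1 exon bases on the same strand, with a mean count of 622 beside 24250.

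Both lysine genes fell. Gcdh, the glutaryl-CoA dehydrogenase shared by lysine and tryptophan breakdown, stood at 322, 307 and 314 CPM in the controls and 160.1, 164 and 188 CPM in the knockouts and fell by 0.88 ± 0.09 (edgeR adjusted p = 0.000318). Its call held under every scaling and every single omission. Aass, the first enzyme of the main lysine route, stood at 182, 156 and 171 CPM in the controls and 108, 118 and 154 CPM in the knockouts and fell by 0.42 ± 0.14 (edgeR adjusted p = 0.0487), a call that held only without knockout 3 among the 6 omissions and was lost under library sizes alone (-0.06).

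The transaminases and glutamate dehydrogenase collect nitrogen from all the routes, and here 3 of 5 genes fell, with a median of -0.33 that turned to 0.03 with library sizes alone. Mitochondrial aspartate aminotransferase, Got2, stood at 744, 700.2 and 743 CPM in the controls and 458, 445 and 465 CPM in the knockouts and fell by 0.68 ± 0.07 (edgeR adjusted p = 0.000469). Mitochondrial alanine aminotransferase, Gpt2, stood at 949, 825 and 899.7 CPM in the controls and 585, 490 and 439.8 CPM in the knockouts and fell by 0.82 ± 0.12 (edgeR adjusted p = 0.00158). Groups were apart for both mitochondrial enzymes, and both calls held under every scaling.

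Cytosolic Gpt stood at 300.1, 285 and 274 CPM in the controls and 239, 203 and 239.9 CPM in the knockouts and fell by 0.33 ± 0.09 under TMM (edgeR adjusted p = 0.0258), but its log2 fold change was 0.03 with library sizes alone, and the call was lost without control 1, control 2 or knockout 2 (edgeR adjusted p up to 0.0841). Glud1, glutamate dehydrogenase, stood at 1700, 1402 and 1507 CPM in the controls and 1345, 1239 and 1259 CPM in the knockouts and did not pass (-0.26 ± 0.10, edgeR adjusted p = 0.065; 0.11 with library sizes alone). Got1, the cytosolic aspartate aminotransferase, stood at 276, 322 and 229 CPM in the controls and 176, 195 and 315 CPM in the knockouts and did not pass (-0.27 ± 0.23, edgeR adjusted p = 0.404; 0.09 with library sizes alone). For Got1, knockout 3 lay among the controls while knockouts 1 and 2 lay below them, and without knockout 3 the log2 fold change was -0.56 (edgeR adjusted p = 0.0333), which was also the route median in that fit.

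Ratios between genes within a library do not depend on library scaling, and 4 were compared by exact two-sided permutation tests, for which 3 against 3 mice cannot go below p = 0.1. Gpt over Gpt2 by FPKM was 0.607, 0.663 and 0.585 in controls 1 to 3, against 0.785, 0.793 and 1.05 in knockouts 1 to 3, a log2 difference of 0.49 (exact p = 0.1, 0.133 adjusted over the 4 ratios). Bckdk over Bckdha was 0.0302, 0.0481 and 0.0367 in controls 1 to 3, against 0.0615, 0.0567 and 0.066 in knockouts 1 to 3, a log2 difference of 0.70 (exact p = 0.1, adjusted 0.133). In both ratios every knockout lay above every control. Gldc over Amt was 1.48, 1.71 and 1.72 in controls 1 to 3, against 1.25, 1.42 and 1.31 in knockouts 1 to 3, with a log2 difference of -0.30 (exact p = 0.1, adjusted 0.133) and no overlap. Got1 over Got2 was 0.705, 0.873 and 0.585 in controls 1 to 3, against 0.729, 0.831 and 1.29 in knockouts 1 to 3 (log2 difference 0.37, exact p = 0.4, adjusted 0.4), and its groups overlapped. The Got1 over Got2 difference ranged from 0.13 without knockout 3 to 0.54 without knockout 1. None of the 4 could reach 0.05 with this number of mice.

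**Figure D4:**
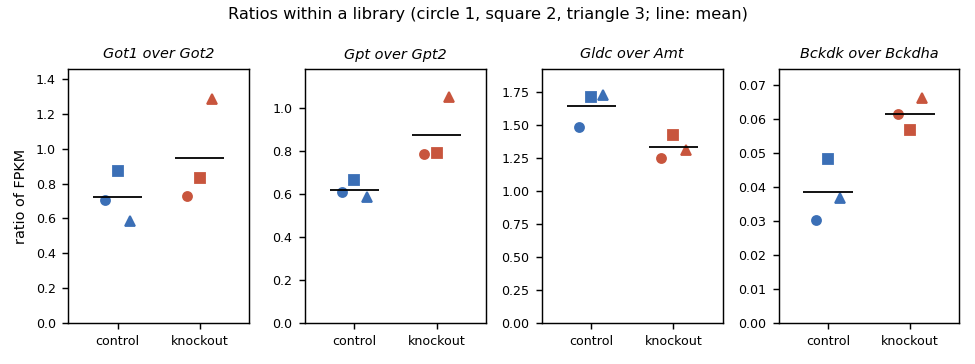
Ratio of FPKM within each library for 4 pairs of genes (axes from 0), with circles, squares and triangles for libraries 1, 2 and 3 of each genotype and a line at the group mean. Gpt over Gpt2 and Bckdk over Bckdha lie higher in every knockout than in any control, Gldc over Amt lies lower, and Got1 over Got2 overlaps, with knockout 3 at 1.29.

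By FPKM the 49 genes summed to 4206, 4210 and 4085 in controls 1 to 3, against 3080, 3007 and 3247 in knockouts 1 to 3. Tat alone made up 27.8, 32.2 and 27.5% of that sum in controls 1 to 3, against 19.5, 20.4 and 19.3% in knockouts 1 to 3. The other 5 tyrosine genes together held 22.0, 21.4 and 21.5% and 21.4, 22.3 and 24.9%, and their groups overlapped. The whole tyrosine route had a lower share in the knockouts (49.8, 53.6 and 49.04% in controls 1 to 3, 40.9, 42.8 and 44.2% in knockouts 1 to 3). A fall of Tat raises the shares of all other genes, so overlapping shares do not mean that the other tyrosine genes were unchanged. By FPKM, Hpd, Pcbd1 and Qdpr also lay lower in every knockout than in any control, while Hgd and Fah overlapped. Shares move with the total, so a route's share can be higher without more of its RNA. The transaminases and Glud1 summed to 762, 673 and 690 FPKM in controls 1 to 3 and to 697, 645 and 672 FPKM in knockouts 1 to 3, and the branched-chain genes to 254, 228 and 242 FPKM and to 230.2, 221 and 223 FPKM. Both sums overlapped between genotypes, while both shares were higher in every knockout. The propionate, histidine and glycine shares were also higher in every knockout, and those of tryptophan, proline and lysine overlapped. After Tat, the most abundant genes in the controls were Hpd (370.0), Glud1 (294) and Tdo2 (273), and in the knockouts Glud1 (312 ± 19.0) and Hpd (305 ± 36.6) did not differ beyond their spread (SD, n = 3).

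A further list of 48 symbols from the same pathways was read beside the members. Its Ccbl1 and Ccbl2, which did not match, are older symbols of Kyat1 and Kyat3, which were also listed and matched. Of the 48 symbols, 46 matched and 40 were tested. Under TMM 22 were lower, 2 higher and 16 not passed, with a median of -0.58, beside the 18.0% and 19.9% of all genes given above. With library sizes alone 12 were lower and 7 higher, beside 6.60% and 34.1% of all genes. The 6 with the smallest p were all lower, and 5 of them are described. Hao1, the peroxisomal glycolate oxidase that feeds glyoxylate to Agxt, stood at 118, 148 and 127 CPM in the controls and 45.2, 49.1 and 58.7 CPM in the knockouts and fell by 1.36 ± 0.13 (edgeR adjusted p = 0.000266). Gcat, which yields glycine from threonine, stood at 64.6, 88.4 and 64.2 CPM in the controls and 30.8, 30.7 and 32.1 CPM in the knockouts and fell by 1.21 ± 0.14 (edgeR adjusted p = 0.000552). Groups were apart for both genes.

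Sardh, which makes glycine from sarcosine, stood at 582, 586 and 591 CPM in the controls and 312, 298 and 343 CPM in the knockouts and fell by 0.89 ± 0.08 (edgeR adjusted p = 0.00023). Gstz1, the isomerase between Hgd and Fah in the tyrosine route, stood at 292, 293 and 281 CPM in the controls and 179, 172 and 175 CPM in the knockouts and fell by 0.72 ± 0.07 (edgeR adjusted p = 0.000314). Dld, the dehydrogenase subunit shared by the glycine cleavage system and the branched-chain complex, stood at 185, 165 and 173 CPM in the controls and 108, 106 and 104 CPM in the knockouts and fell by 0.72 ± 0.08 (edgeR adjusted p = 0.000483). Groups were apart for these 3 genes too.

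Markers of liver cell types differed by genotype in the same libraries. Of 11 hepatocyte markers measured, 9 were lower. Fgb (-0.17 ± 0.12, edgeR adjusted p = 0.307) and Cps1 (-0.01 ± 0.14, edgeR adjusted p = 0.973) did not pass. By FPKM, Cps1 lay higher in every knockout (560.2, 572.5 and 737.9) than in any control (510.7, 456.0 and 516.4). The summed FPKM of the 11 was 35270 to 42530 in the controls and 26330 to 31350 in the knockouts. Most of that sum was Alb, with a mean of 26060 FPKM in the controls and 18900 FPKM in the knockouts. Alb fell by 0.81 ± 0.14 (edgeR adjusted p = 0.00366). Markers of 3 other cell types moved the other way. All 8 cholangiocyte markers rose, from a summed 26.6 to 35.5 FPKM to 654 to 766, with Krt19 at 3.98 ± 0.17 (edgeR adjusted p = 1.37e-05). Most of that sum was Spp1, at 29.83, 21.22 and 26.07 FPKM in the controls and 555.2, 655.7 and 616.0 FPKM in the knockouts. All 10 macrophage markers rose, from 569 to 652 FPKM in the controls to 1836 to 2008, with Adgre1 at 0.91 ± 0.16 (edgeR adjusted p = 0.00317). Of 8 stellate cell markers 7 rose, from 77.3 to 86.6 FPKM to between 269.6 and 331.6, with Pdgfrb at 2.21 ± 0.13 (edgeR adjusted p = 4.4e-05). No kidney tubule marker was abundant enough to be tested, and Umod, Slc34a1 and Kap were at 0 in every library. The median fold change of the hepatocyte markers was -0.80 and that of the members -0.55. Among the members, Tat, Kmo, Qdpr and Gldc had the lowest fold changes.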

How the data were processed

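The authors deposited a table of estimated counts and FPKM values per gene and library. Tools named in the submitters' processing notes, without roles, are StringTie 1.3.4d, HISAT2 2.0.4, cutadapt 1.9, UMI-tools, edgeR and DESeq2. Per the labels' protocols, poly(A) RNA libraries were strand-marked with dUTP and carried molecular identifiers. Whether counting used strand is not given in the sources used here. The notes name mm9, but 51920 of 55141 gene identifiers (94.2%), and 45 of the 49 members, had the GRCm38 position of GENCODE M21, so GRCm38 is used. Per the file headers, columns are named wt and AlbCRE. The latter matched the knockout title, and wt was assigned to the only other genotype.

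Deposited counts were whole numbers but favoured multiples of 4 (control 1 had 854 genes at 4, 280 at 3 and 167 at 5). They were treated as estimated counts that overstate the number of independent molecules, and no counting intervals are given. Deposited FPKM was 0.0001 where the count was 0. Totals per library were 63189210, 67319086 and 66115966 in controls 1 to 3 and 58790874, 78291273 and 77300027 in knockouts 1 to 3.

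Rounded counts were fitted in R 4.3.3 with edgeR 4.0.16 (filterByExpr, minimum count 10 and total 15; TMM; genotype only; two-sided quasi-likelihood test, adjusted p threshold 0.05). The script was tested on simulated data. Alternatives were DESeq2 1.42.0, limma 3.58.1 on log2(FPKM + 0.5) or log2(FPKM + 0.1) for genes with a mean FPKM of at least 0.1, RLE factors, library sizes alone, no count filter, a fold of at least 1.5, a replicate block and leaving out each library. Dividing the counts by 4 was an alternative chosen after seeing the data. The labels state 3 mice per genotype. Same-numbered libraries showed only weak correlations of deviations (0.0157, 0.0309 and 0.0353, each under 0.1), while those of unlike numbers were negative. The main fit used no block. The members and lists were chosen with earlier results of these data known. Full values are given for up to 4 members per route with the smallest p and for members against their route's majority, and for 5 of the 6 genes of the further list with the smallest p. Some genes of that list are not reported here. Promoter sequences are RefSeq's.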

Additional observations from a re-analysis of the deposited data

How the results depend on the processing

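With RLE factors, DESeq2, no count filter and counts divided by 4, the numbers of members and of all genes called in each direction stayed within 1.5 times those reported. Requiring a fold of at least 1.5 left 22 members and 1993 genes called lower. With library sizes alone, 16 members were lower and 2 higher, 1249 and 6459 of all genes, and 12 and 7 of the further list. With limma on FPKM the members were 15 lower and 2 higher at both pseudocounts (0.5 and 0.1), all genes 1313 and 1318 lower and 6248 and 6241 higher, and the further list 12 lower and 6 higher. The TMM factors were 0.8875, 0.8693 and 0.8843 in controls 1 to 3 and 1.155, 1.159 and 1.096 in knockouts 1 to 3. Every TMM-scaled CPM and fold change includes these factors. Both other scalings leave them out and shift the median of all genes upward. Why the factors differed by genotype was not tested. Route medians with library sizes alone, with pseudocount 0.5 and with 0.1 were -0.371, -0.394 and -0.395 for tyrosine, -0.300, -0.289 and -0.305 for tryptophan, 0.085, 0.054 and 0.059 for branched-chain, -0.089, -0.106 and -0.108 for propionate, 0.126, 0.087 and 0.088 for histidine, -0.270, -0.274 and -0.280 for glycine, -0.362, -0.379 and -0.382 for proline, -0.286, -0.308 and -0.310 for lysine, and 0.032, 0.01 and 0.011 for the transaminases.

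In the same order of settings, 12 members changed sign: Bcat2 (0.285, 0.245, 0.258), Dbt (0.138, 0.139, 0.143), Mccc1 (0.107, 0.074, 0.082), Mccc2 (0.187, 0.162, 0.168), Auh (0.063, 0.034, 0.037), Mmab (0.059, 0.039, 0.043), Uroc1 (0.126, 0.087, 0.088), Amdhd1 (0.331, 0.303, 0.305), Sdsl (0.239, 0.208, 0.218), Got1 (0.091, 0.045, 0.045), Gpt (0.032, 0.01, 0.011) and Glud1 (0.106, 0.09, 0.09). None of these 12 passed the test in those settings. When single libraries were left out, 3 members whose groups overlapped changed sign: Bcat2 ranged from -0.149 to 0.007 (positive without knockout 2), Bckdk was -0.071 without control 1, and Amdhd1 ranged from -0.154 to 0.089 (positive without control 1, at 0.067, and without knockout 2).

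Over the 6 omissions the members called ranged from 30 to 36 lower and from 0 to 1 higher, and the further list from 19 to 24 lower and from 1 to 2 higher. All genes called ranged from 2641 to 3104 lower and 2892 to 3645 higher. Route medians ranged from -0.31 to -0.24 for branched-chain, -0.41 (without knockout 3) to -0.15 (without knockout 1) for histidine, -0.74 to -0.58 for glycine and -0.56 to -0.26 for the transaminases.

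With the replicate number as a block, 34 members were lower and 1 higher, and 3207 and 3269 of all genes. Acmsd (-0.43, edgeR adjusted p = 0.0404) and Glud1 (-0.26, edgeR adjusted p = 0.036) were called lower under the block, and Hgd, Mccc1 and Aass were not (edgeR adjusted p = 0.0504, 0.0742 and 0.0518). Every library correlated best with its own number, which is a hint from the data and not from the design. With 3 mice per genotype, calls near the threshold (Hgd, Aass, Mccc1, Gpt, Ido2 and Afmid) moved with single libraries.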
